A study of Mus musculus with 8 samples.

Results

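The genes described here are 8 genes of cholesterol synthesis that SREBP2 controls, followed in the esophagi of healthy mice with and without monoacylglycerol lipase (MGL). They were chosen by symbol (Srebf2, Insig1, Hmgcs1, Idi1, Fdft1, Sqle, Lss and Cyp51), and all 8 were found among the 32849 gene symbols listed in the deposited counts. All 8 also belonged to the 14864 genes left after a filter on low counts. The set holds the regulators and synthesis enzymes but no receptor for cholesterol uptake, so uptake and transport genes were taken from a wider list and are described after the 8. The study sequenced poly(A)-selected RNA of frozen esophagi, with 4 MGL KO and 4 WT samples. Its stated question was whether lower MGL results from inflammation or can on its own promote eosinophilic esophagitis. MGL KO mice lack MGL, encoded by Mgll, throughout the body and not only in the esophagus. According to the study's methods they were bred in-house with WT littermates, and young adult mice of both sexes were used, while the labels give no age or sex for a library and no treatment.

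MGL splits monoacylglycerols such as the endocannabinoid 2-arachidonoylglycerol into fatty acid and glycerol. Cholesterol is built from acetyl-CoA through mevalonate, the isoprenoid units, squalene and lanosterol. SREBP2 is the transcription factor that drives these steps: its precursor sits in the membrane of the endoplasmic reticulum, bound to SCAP, and INSIG proteins hold it there while sterols are plentiful. When membrane sterol falls, SCAP carries the precursor to the Golgi, proteases release its active part, and the genes of synthesis are transcribed together. In a stratified squamous epithelium such as that of the esophagus, cholesterol is needed for the membranes of dividing basal cells and for the lipids of the outer layers. SREBP2 binds the sterol regulatory element, usually next to boxes for the factors NF-Y and Sp1.

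The sequences before the start of 4 of the genes are shown because each holds at least 1 of these boxes and because the genes differed in how they varied between libraries, as described further on. Promoters of 6 of the 8 genes were matched in the RefSeq table of mouse promoters (build GRCm38.p6), and Fdft1 and Sqle were not among them. Each line gives the 150 bases before the start of the gene, on the strand of the gene, with letters that match one of the motifs named after them, on either strand, in capitals. Hmgcs1 is at chr13:119690201-119690350 on the + strand, Cyp51 at chr5:4104698-4104847 on the - strand, Insig1 at chr5:28071262-28071411 on the + strand, and Srebf2 at chr15:82147119-82147268 on the + strand.
Hmgcs1: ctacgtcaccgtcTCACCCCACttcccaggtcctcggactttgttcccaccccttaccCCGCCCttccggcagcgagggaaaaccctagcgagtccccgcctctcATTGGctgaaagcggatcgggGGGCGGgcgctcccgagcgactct
Cyp51: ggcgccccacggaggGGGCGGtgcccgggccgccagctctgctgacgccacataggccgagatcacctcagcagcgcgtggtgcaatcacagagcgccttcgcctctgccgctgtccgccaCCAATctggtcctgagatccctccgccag
Insig1: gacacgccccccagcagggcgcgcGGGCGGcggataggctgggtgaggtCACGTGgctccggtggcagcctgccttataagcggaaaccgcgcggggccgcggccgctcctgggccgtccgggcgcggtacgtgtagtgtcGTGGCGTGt
Srebf2: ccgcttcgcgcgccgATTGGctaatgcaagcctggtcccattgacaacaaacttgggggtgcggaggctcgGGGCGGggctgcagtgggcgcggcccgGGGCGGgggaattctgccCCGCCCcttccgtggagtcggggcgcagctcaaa

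Exact matches were sought on both strands in windows of 300 bases, from 250 before to 50 after the start. The sterol regulatory element in the form TCACNCCAC was found in 1 of the 6 promoters, that of Hmgcs1, where it begins 137 bases before the start. Of all 32851 promoters in the table, 1.24% held it. Its inner part, CACNCCAC, which overlaps the longer motif, was found in Hmgcs1 and, 9 bases before the start on the opposite strand, in Insig1, against 6.24% of all promoters. The NF-Y box CCAAT, on either strand, was in 6 of 6 promoters and in 37.4% of all promoters. The Sp1 box GGGCGG was likewise in 6 of 6, and in 35.7% of all. An E-box, CACGTG, was in 1 of the 6, Insig1, and in 7.15% of all promoters. Among 12 promoters of other cholesterol synthesis genes, TCACNCCAC was in 0, CACNCCAC in 1, CCAAT in 11, GGGCGG in 11 and CACGTG in 3. These matches describe letters in a window and are not binding sites.

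The total count was between 13479069 and 17090152 per library, and 3 counts, the level that a count of 0 allows, corresponded to between 0.167 and 0.271 normalized CPM (counts scaled to a common library size), for counting error only. Mgll was at 12.6, 16.0, 13.1 and 13.2 CPM in MGL KO libraries 1 to 4 and at 83.3, 66.6, 88.3 and 86.7 CPM in WT libraries 1 to 4. The groups did not overlap, as their labels say, with a log2 fold change of -2.57 (SE 0.13, adjusted p = 0.000133 in edgeR's quasi-likelihood test). Marker genes of the cell types of the esophagus varied widely between libraries. The summed level of 9 differentiated squamous markers, led by the keratin gene Krt13, lay between 2188 and 13427 CPM in MGL KO and between 3058 and 14428 CPM in WT esophagi, with Crnn at or near 0 in every library. The lowest of these sums belonged to MGL KO 2 and WT 3, which also held the lowest sums of 7 basal squamous markers led by Krt5 (2976 and 3270.2 CPM) and of 6 Schwann cell markers led by Mbp (120.2 and 105.5 CPM), a list in which Pmp2 was at 0 in every library. The same libraries had the highest sums of 10 skeletal muscle markers led by Acta1 (95182 and 81226 CPM, others between 40664 and 63994). They also had the lowest sums of 6 adipocyte markers led by Plin4 (345.6 and 374.9 CPM, others at most 838.1). Most of these sums was Plin4 itself (324.0 and 363.6 CPM), which was lowest in MGL KO 4 (307.7 CPM). Adipoq, another of these markers, was at 2.80 CPM in MGL KO 2 and 0.85 CPM in WT 3. Elsewhere Adipoq lay between 9.86 and 57.6 CPM. MGL KO 4 held the airway genes: 6 ciliated markers led by Foxj1 summed to 535.6 CPM there and to at most 6.92 elsewhere, and 6 secretory markers led by Bpifa1 to 8342 CPM against at most 51.3. Smooth muscle markers (5 genes led by Acta2) lay between 1439.6 and 2000.5 CPM in MGL KO and between 1093 and 2174 CPM in WT. In such whole tissue, fewer cells of a type and less RNA per cell cannot be told apart. MGL KO 2, MGL KO 4 and WT 3 stood apart in this way, so counts of called genes are also given without them.

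None of the 8 genes passed the test of a difference between the genotypes. After adjustment for all genes tested, 0 of the 8 had a p under 0.05, where 0.0471% of all genes tested were called (7 of 14864). An unadjusted p under 0.05 was reached by 0 of the 8, by the quasi-likelihood test and also by edgeR's exact test, DESeq2 and limma-voom, against 8.65% of all genes in the quasi-likelihood test. The MGL KO and WT libraries overlapped in all 8, whereas in 6.02% of all genes the MGL KO values were all above or all below the WT values. Of the 8 log2 fold changes, 5 were above and 3 below 0, with a median of 0.10, beside a median of 0.02 over all genes tested. Without MGL KO 2, MGL KO 4 and WT 3, the count called was again 0 of 8, with 0.0263% of all genes called in that fit, and the median was 0.04. Insig1 was then the only one of them with an unadjusted p under 0.05 in edgeR's quasi-likelihood test, at a log2 fold change of -0.29 (unadjusted p = 0.0378, adjusted p = 0.477), where 9.99% of all genes had one.

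**Figure D1:**
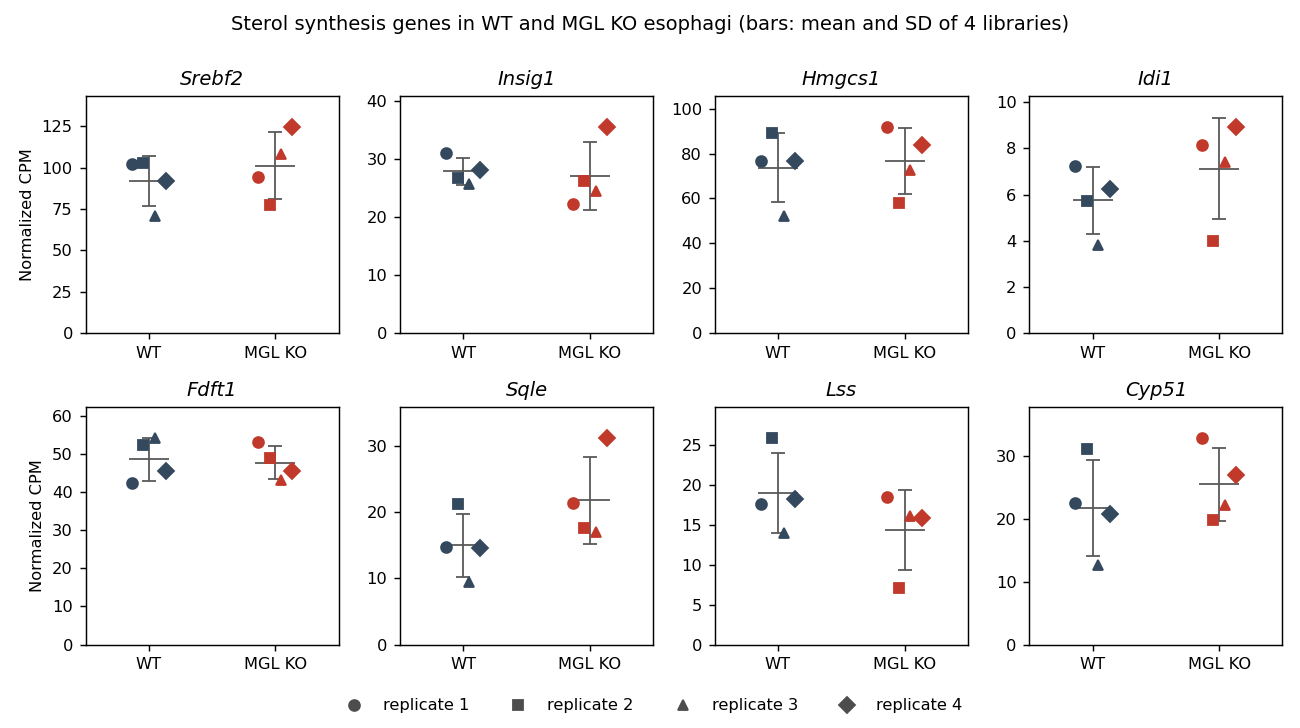
Normalized CPM (y axis, from 0) of the 8 genes in the 4 WT (blue) and 4 MGL KO (red) libraries (x axis), with 1 point per library shaped by replicate number and bars for the mean and SD. The groups overlap in every panel, and WT 3 (blue triangle) is the lowest WT point in 7 of the 8.

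Srebf2 encodes SREBP2 itself and occupies 82031382 to 82093201 of chromosome 15 (GRCm39, + strand). Its level in MGL KO libraries 1 to 4 was 94.5, 77.3, 108.3 and 124.8 CPM, and in WT libraries 1 to 4 it was 102.0, 102.8, 70.7 and 92.2 CPM. The highest value was that of MGL KO 4 and the lowest that of WT 3, with the remaining libraries mixed between them. The log2 fold change was 0.14 (SE 0.17, 95% interval -0.25 to 0.53, adjusted p = 0.817 in edgeR's quasi-likelihood test). In linear terms the interval ran from 0.841-fold to 1.44-fold. Without MGL KO 4 the log2 fold change was 0.02, and without MGL KO 2 it was 0.25. The gene body of Srebf2 holds the microRNA gene Mir33 and overlaps Shisa8 on the opposite strand.

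Insig1 encodes the anchor that retains SCAP and the SREBP precursor, and its own transcription is raised by SREBP2. The gene occupies 28276315 to 28283668 of chromosome 5 (GRCm39, + strand) and overlaps Gm26608 on the opposite strand. Its MGL KO levels were 22.2, 26.2, 24.5 and 35.6 CPM and its WT levels 31.1, 26.7, 25.7 and 28.1 CPM, in the order of the replicate numbers. MGL KO 4 was the highest of all libraries, while MGL KO 1, 2 and 3 lay below the middle of the WT range. The WT values were close together (27.9 ± 2.33 CPM, SD, n = 4) and the MGL KO values less so (27.1 ± 5.90 CPM, SD, n = 4). For Insig1 the log2 fold change was -0.04 (SE 0.16, 95% interval -0.39 to 0.31, adjusted p = 0.949 in edgeR's quasi-likelihood test), and it was -0.20 without MGL KO 4. It turned above 0 in 3 of the 8 fits that each left out 1 library, to at most 0.05.

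Hmgcs1 encodes cytosolic HMG-CoA synthase, an early enzyme of the mevalonate pathway. The gene is at 120151915 to 120170470 of chromosome 13 (GRCm39, + strand) and overlaps Nim1k and Gm48342 on the opposite strand. MGL KO libraries gave 92.0, 57.8, 72.6 and 84.0 CPM and WT libraries 76.7, 88.9, 52.3 and 76.5 CPM. Each group held 1 low library, MGL KO 2 and WT 3, and the others lay between 72.6 and 92.0 CPM. The log2 fold change of 0.06 (SE 0.19, 95% interval -0.37 to 0.48, adjusted p = 0.935 in edgeR's quasi-likelihood test) turned to -0.07 without WT 3 and to -0.04 without MGL KO 1. Idi1, the isomerase that interconverts the isoprenoid building blocks, is encoded on the same chromosome at 8935537 to 8942487, + strand. Its locus overlaps Gm48574 on the opposite strand. Idi1 had the fewest counts of the 8, between 44 and 159 per library. Its MGL KO levels were 8.1, 4.0, 7.4 and 8.9 CPM and its WT levels 7.3, 5.7, 3.8 and 6.3 CPM, again with MGL KO 2 and WT 3 the lowest. The log2 fold change was 0.31 (SE 0.30, 95% interval -0.36 to 0.98, adjusted p = 0.772 in edgeR's quasi-likelihood test), and it ranged from 0.16 without WT 3 to 0.50 without MGL KO 2.

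Fdft1 encodes squalene synthase, the first enzyme that commits carbon to sterols. Its locus, 63382189 to 63417027 of chromosome 14 (GRCm39, - strand), overlaps Ctsb on the opposite strand. Its levels were 53.1, 49.1, 43.3 and 45.6 CPM in MGL KO and 42.3, 52.5, 54.3 and 45.5 CPM in WT libraries. All 8 values lay close together, with a coefficient of variation of 8.96% in MGL KO, the smallest of the 8 genes there, and of 11.7% in WT. In contrast to the other 7 genes, WT 3 held the highest WT level of Fdft1. Fdft1 had a log2 fold change of -0.03 (SE 0.11, 95% interval -0.28 to 0.23, adjusted p = 0.952 in edgeR's quasi-likelihood test), the narrowest interval of the 8, and its sign turned in 3 of the 8 fits without 1 library.

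Sqle encodes squalene epoxidase, a rate-limiting enzyme after squalene. Its locus, 59186869 to 59203043 of chromosome 15 (GRCm39, + strand), overlaps Washc5 on the opposite strand. MGL KO levels were 21.4, 17.6, 17.0 and 31.2 CPM and WT levels 14.7, 21.2, 9.5 and 14.5 CPM. All 4 MGL KO libraries lay above WT 1, 3 and 4, but WT 2 was above MGL KO 2 and 3, so the groups overlapped. The means were 21.8 ± 6.60 CPM (SD, n = 4) in MGL KO and 15.0 ± 4.82 CPM (SD, n = 4) in WT. This gave the largest log2 fold change of the 8, 0.54 (SE 0.27, 95% interval -0.08 to 1.16, unadjusted p = 0.0792, adjusted p = 0.629 in edgeR's quasi-likelihood test). Single libraries moved this value. It was 0.76 without WT 2, with an unadjusted p of 0.0221 and an adjusted p of 0.837 in the same test, 0.32 without MGL KO 4, and 0.19 without MGL KO 2, MGL KO 4 and WT 3.

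Lss encodes lanosterol synthase, which closes the sterol rings, and occupies 76367298 to 76392976 of chromosome 10 (GRCm39, + strand). Its levels were 18.4, 7.0, 16.2 and 15.8 CPM in MGL KO and 17.6, 25.9, 14.0 and 18.3 CPM in WT libraries. MGL KO 2 was far below and WT 2 above the other 6 libraries, which lay between 14.0 and 18.4 CPM. Lss had a log2 fold change of -0.40 (SE 0.30, 95% interval -1.07 to 0.28, adjusted p = 0.714 in edgeR's quasi-likelihood test). It was -0.17 without MGL KO 2 and -0.21 without WT 2. Cyp51 encodes the sterol demethylase that acts on lanosterol. Its locus, 4123416 to 4154751 of chromosome 5 (GRCm39, - strand), overlaps Akap9 on the opposite strand. MGL KO libraries gave 32.8, 19.8, 22.1 and 27.0 CPM and WT libraries 22.4, 31.0, 12.6 and 20.7 CPM. WT 3 was the lowest, and MGL KO 1 and WT 2 were the highest of their groups. For Cyp51 the log2 fold change was 0.23 (SE 0.27, 95% interval -0.37 to 0.83, adjusted p = 0.802 in edgeR's quasi-likelihood test). With each library left out in turn it ran from 0.05, without WT 3, to 0.46.

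A two-sided exact permutation test of the difference in mean log2 CPM, which does not rest on the count model, gave p-values between 0.143 for Sqle and 0.857 for Fdft1 over the 8 genes. The smallest p that 4 libraries against 4 can give is 0.0286. The labels number the samples of a group and say nothing of animals or batches, so p-values measure the spread between these samples. Whether the counting used strand is not given, so reads of a gene and of an overlapping gene on the opposite strand cannot be told apart.

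**Figure D2:**
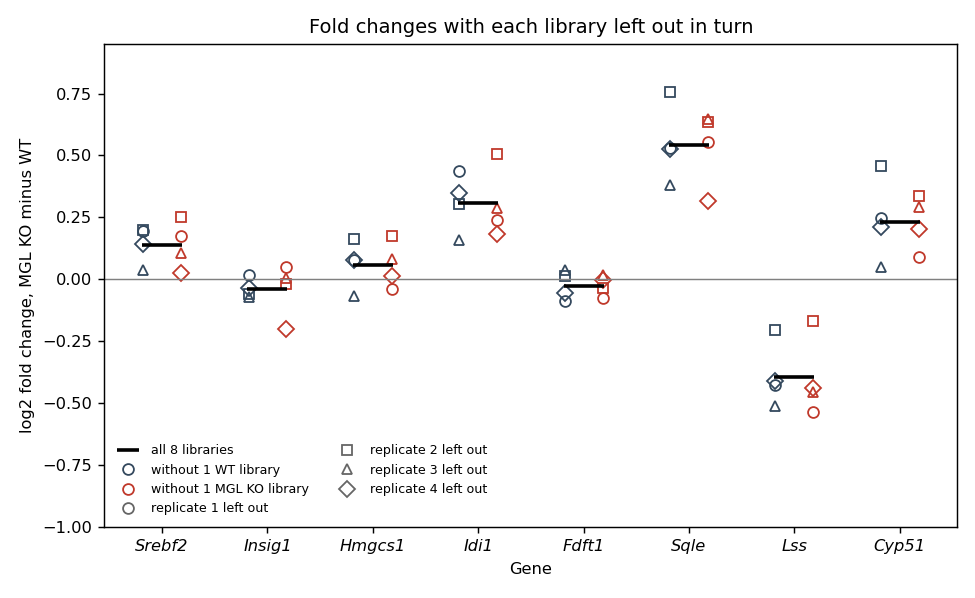
Log2 fold change, MGL KO minus WT (y axis), of each of the 8 genes (x axis) with all libraries (black bar) and with 1 WT (blue) or 1 MGL KO library (red) left out, the shape giving the replicate number. The values of Insig1, Hmgcs1 and Fdft1 lie on both sides of 0, and those of Sqle run from 0.32 to 0.76.

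The 8 genes differed widely in level. Per kilobase of exon, Hmgcs1 was the highest in WT esophagi, at 14.0 ± 2.91 CPM per kilobase (SD, n = 4). Fdft1 (10.2 ± 1.19) and Srebf2 (9.84 ± 1.60) followed, and the libraries of these 3 neighbours overlapped. Insig1 (5.71 ± 0.48) was below Srebf2 in every WT library, and Cyp51 (3.65 ± 1.27) was below Insig1 in every WT library. Sqle (1.69 ± 0.54), Lss (1.67 ± 0.44) and Idi1 (1.62 ± 0.41 CPM per kilobase) came last and overlapped each other. The WT libraries of Cyp51 and Sqle overlapped as well. These levels divide by the length of all annotated exons, which transcripts in the esophagus may not use in full.

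The spread between libraries of the same genotype had a shape that most of the 8 genes shared. WT 3 was the lowest WT library in 7 of 8 genes and MGL KO 2 the lowest MGL KO library in 5 of 8. The same libraries were lowest in 13 and 12 of 15 other cholesterol synthesis genes, while WT 3 was the lowest of its group in 35.8% and MGL KO 2 in 39.3% of all genes tested. In WT 3, the log2 deviation from the mean of all 8 libraries was -0.88 for Sqle, -0.85 for Cyp51, -0.69 for Idi1, -0.50 for Hmgcs1 and -0.43 for Srebf2. In MGL KO 2 it was -1.16 for Lss, -0.63 for Idi1, -0.35 for Hmgcs1 and -0.30 for Srebf2, but 0.01 for Sqle. These are the libraries in which the summed differentiated squamous markers deviated by -1.08 and -1.56 and the skeletal muscle markers by 0.35 and 0.58. At the other end, WT 2 was the highest WT library in 5 of the 8 genes and MGL KO 1 the highest MGL KO library in 4 (17.7% and 14.4% of all genes tested), and the differentiated squamous sum deviated by 1.16 and 1.05 there. MGL KO 4, with the airway markers, held the highest level of its group in the other 4 genes, Srebf2, Insig1, Idi1 and Sqle, and in 30.9% of all genes tested. The part of cell content in these levels was not tested.

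**Figure D3:**
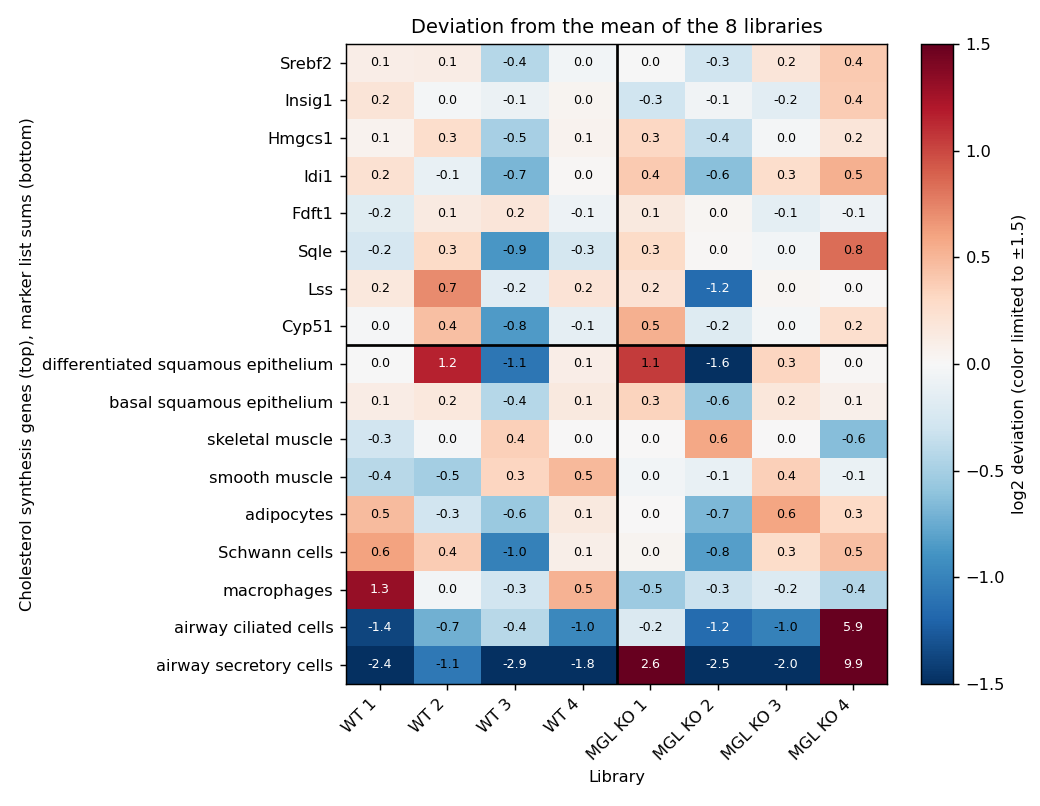
Log2 deviation of each library (x axis, WT left, MGL KO right) from the mean of the 8 libraries, for the 8 genes (upper block) and for the summed marker lists (lower block), with the value printed in each cell and the color limited to ±1.5. WT 3 and MGL KO 2 are low in most of the 8 genes and in the squamous, adipocyte and Schwann cell sums, and high in the skeletal muscle sum.

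With the mean of each genotype taken off, each gene was compared with the mean of the other 7 over the 8 libraries. Hmgcs1 followed the others most closely (Pearson r = 0.95, n = 8 libraries), then Srebf2 (0.86), Cyp51 (0.85), Sqle (0.82), Idi1 (0.81) and Lss (0.80). Insig1 (0.25) and Fdft1 (-0.27) did not share the shape. Much of it came from MGL KO 2 and WT 3. Without these libraries the r stayed at 0.88 for Sqle, 0.76 for Hmgcs1 and 0.62 for Cyp51, but it was 0.34 for Srebf2, 0.34 for Lss, 0.00 for Idi1, 0.14 for Insig1 and 0.49 for Fdft1. Hmgcs1 and Cyp51, which followed the others also without these libraries, and Insig1, which did not, are the genes whose promoters are printed above with that of Srebf2. Among all other genes tested, the 5 with the profile most like the mean of the 8 were Pof1b (r = 0.99), Sh3rf1 (0.98), Ermp1 (0.98), Kctd1 (0.98) and Abi1 (0.98), and without MGL KO 2 and WT 3 their r was 0.94, 0.93, 0.93, 0.95 and 0.97. The points share their libraries and thus depth, scaling and cell content, and no p is given.

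The remaining steps of the pathway gave no call either. Of 15 other cholesterol synthesis genes, all tested, 0 passed the adjusted threshold in either direction and 0 had an unadjusted p under 0.05. Their log2 fold changes were above 0 in 9 and below 0 in 6, with a median of 0.02. The sterol isomerase gene Ebp had a log2 fold change of 0.28 and Hsd17b7, a reductase gene of the demethylation steps, one of 0.43, with adjusted p-values of 0.665 and 0.681 in edgeR's quasi-likelihood test. Ebp was at 21.2, 17.1, 19.1 and 24.8 CPM in MGL KO and 18.5, 19.5, 12.8 and 17.1 CPM in WT libraries. Hsd17b7 was at 9.80, 9.11, 7.83 and 8.32 CPM in MGL KO and 6.14, 9.47, 3.55 and 6.91 CPM in WT libraries. Of both genes WT 3 held the lowest level of all, and the groups overlapped. Without WT 3 the log2 fold change was 0.17 for Ebp and 0.23 for Hsd17b7, and without WT 2 that of Hsd17b7 was 0.66.

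Genes that process SREBP and sense sterols gave 0 calls of 11 in either direction, with 8 log2 fold changes above and 3 below 0 and a median of 0.09. An unadjusted p under 0.05 was reached by 2 of them, both higher in MGL KO, beside 8.65% of all genes. Of these, Ubxn4, a gene of protein degradation at the endoplasmic reticulum, was at 140.2, 180.5, 131.3 and 125.3 CPM in MGL KO and 112.5, 111.5, 132.1 and 109.0 CPM in WT. Here WT 3 lay within the MGL KO range, and the log2 fold change was 0.31 (SE 0.14, unadjusted p = 0.0473, adjusted p = 0.578 in edgeR's quasi-likelihood test). Without MGL KO 2 it was 0.19. Erlin2, whose protein sits in cholesterol-rich parts of the endoplasmic reticulum, had a log2 fold change of 0.28 (SE 0.21), which was 0.06 without MGL KO 4. Scap and the protease genes Mbtps1 and Mbtps2 lay at -0.07, -0.14 and 0.09.

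Sterol uptake and transport genes gave 0 calls among the 10 tested of 11, with 5 log2 fold changes above and 5 below 0 and a median of -0.02. Of this list 1 gene, low in most libraries, was not tested. The lowest p-values belonged to Scarb1, the HDL receptor gene (log2 fold change -0.46, SE 0.22, adjusted p = 0.609 in edgeR's quasi-likelihood test), and Lipa, the lysosomal acid lipase gene (-0.57, SE 0.31, adjusted p = 0.638). Lipa was at 40.0 CPM in WT 1 and between 13.3 and 22.6 CPM in the other 7 libraries, and without WT 1 its log2 fold change was -0.17. Stard4, which encodes a sterol carrier of the cytosol, had a value of 0.26, which was 0.10 without WT 3.

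Among LXR targets and efflux genes, which act when sterols are in excess, 0 of the 5 tested of 7 were called, with 2 above and 3 below 0 and a median of -0.04. Abcg5 and Abcg8 were at most 0.28 CPM in every library and were not tested. Abca1, the exporter of cholesterol to apolipoprotein A-I, was at 30.5, 22.5, 33.6 and 38.8 CPM in MGL KO and 61.4, 41.3, 31.5 and 46.0 CPM in WT libraries. Only WT 3 lay within the MGL KO range. The log2 fold change was -0.52 (SE 0.22, unadjusted p = 0.0448, adjusted p = 0.575 in edgeR's quasi-likelihood test), and with each library left out in turn it stayed between -0.65 and -0.33. Mylip, a ubiquitin ligase gene, had a value of -0.25 and Abcg1, another exporter, one of 0.31. Single libraries moved both: Mylip was at -0.10 without MGL KO 2 and -0.35 without WT 3, and Abcg1 at 0.02 without MGL KO 4 and 0.69 without WT 1. Macrophages are rich in such exporters and in acid lipase. The summed level of 6 macrophage markers, led by C1qa, was between 132.0 and 166.4 CPM in MGL KO and between 157.1 and 479.1 CPM in WT libraries, highest in WT 1, as Abca1, Lipa and Scarb1 were. WT 1 was the highest WT library in 29.9% of all genes tested. Of the 6 macrophage markers, 6 were lower in MGL KO, 6 at an unadjusted p under 0.05 and 0 at an adjusted p. Of all genes tested, 8.65% had such an unadjusted p in edgeR's quasi-likelihood test, in either direction. The part of macrophage content in Abca1, Lipa and Scarb1 was not tested.

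Of 3 genes that form or cleave cholesterol esters, 0 were called, with 2 above and 1 below 0 and a median of 0.42. Nceh1, a cholesterol ester hydrolase gene, was at 23.9, 42.1, 24.5 and 34.7 CPM in MGL KO and between 21.5 and 24.5 CPM in WT. MGL KO 2 and 4 were high and the other MGL KO libraries were within the WT range (log2 fold change 0.42, SE 0.19, adjusted p = 0.578 in edgeR's quasi-likelihood test). The value was 0.25 without MGL KO 2 and 0.05 without MGL KO 2, MGL KO 4 and WT 3. Soat2, an acyltransferase gene, was low, at 4.69 CPM in MGL KO 2 and at most 1.56 CPM elsewhere, so that its log2 fold change of 0.94 (SE 0.82) turned to -0.38 without MGL KO 2. Fatty acid synthesis, driven mainly by the related factor SREBP1, was listed for contrast, and 0 of 12 genes were called, with 4 above and 8 below 0 and a median of -0.10. Acss2, an acetyl-CoA synthetase gene, had a log2 fold change of -0.21, Mid1ip1, which helps acetyl-CoA carboxylase assemble, one of -0.24, and the elongase gene Elovl5 one of 0.44, which was -0.02 without MGL KO 4. With 1 library left out in turn, Acss2 lay between -0.26 and -0.15 and Mid1ip1 between -0.34, without MGL KO 1, and -0.13, without MGL KO 3. The adjusted p-values of these 3 genes were 0.646, 0.681 and 0.756 in edgeR's quasi-likelihood test. Over all these other lists together, 0 of 56 genes were called and 3 had an unadjusted p under 0.05, where 8.65% of all genes did. Without MGL KO 2, MGL KO 4 and WT 3 these counts were 0 and 6 of 57, near the 9.99% of all genes in that fit.

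**Figure D4:**
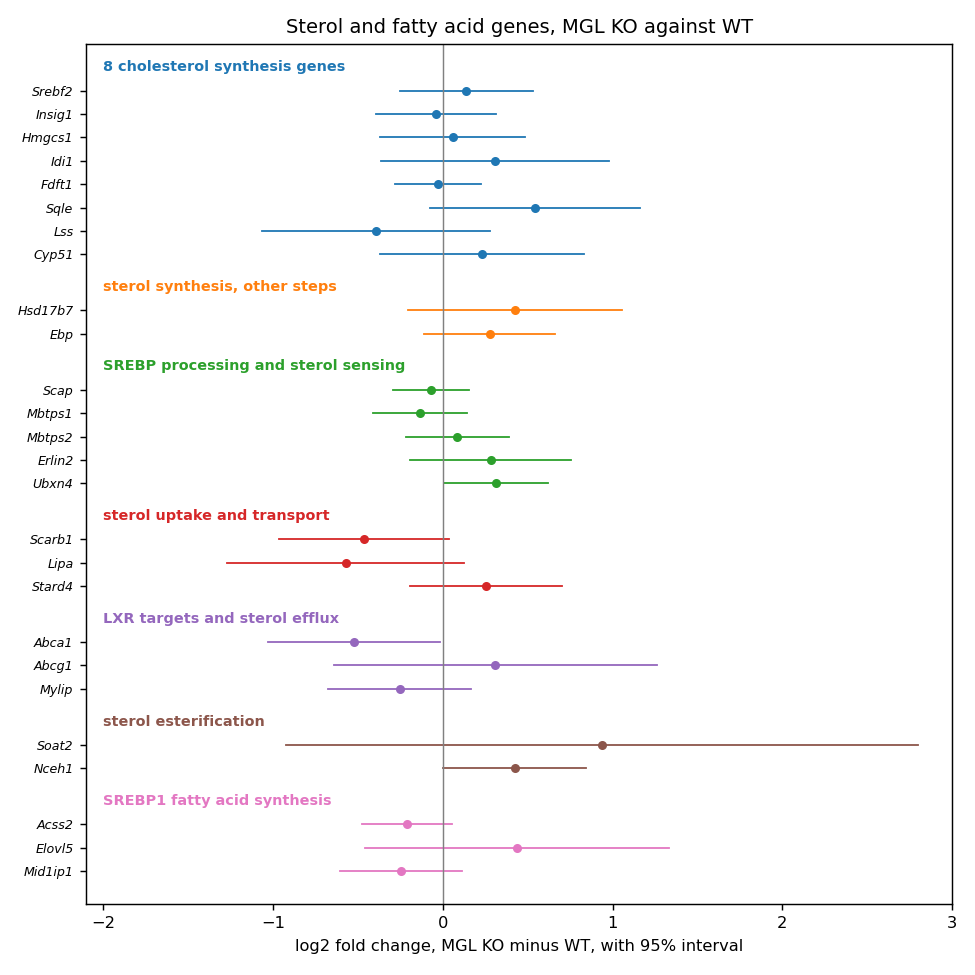
Log2 fold change, MGL KO minus WT (x axis), with its 95% interval (line) for the 8 cholesterol synthesis genes and the genes of the other lists whose values are given in the text (y axis, colored by list). The intervals cross 0 except for those of Ubxn4, just above it, and Abca1, just below it, and that of Soat2 is the widest.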

How the data were processed

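RNA of frozen mouse esophagi, 4 MGL KO and 4 WT samples, was measured by poly(A)-selected RNA sequencing. According to the study's methods, the authors checked reads with FastQC 0.11.9, trimmed them with Cutadapt and aligned them to GRCm39 with STAR 2.7.10b. The deposited values are whole-number counts per gene symbol without normalization. Annotation, counting tool and use of strand are not given in the sources used here, and the authors' use of 2 sequencer models is not given per library.

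Groups and replicate numbers were taken from sample titles. In R 4.3.3, edgeR 4.0.16 kept 14864 of 22721 symbols with a count (filterByExpr, minimum count 10), which held 98.1% to 99.9% of each library. TMM factors were 0.82 to 1.11. MGL KO was compared with WT by the quasi-likelihood test over all kept genes, with Benjamini-Hochberg adjustment and a threshold of 0.05. Alternatives were edgeR's exact test, the test of the paper's methods, DESeq2 1.42.0, limma-voom with quality weights (limma 3.58.1), a robust fit, other scaling factors, other filters, a replicate block and each library left out. The fit without 3 libraries was added after the data were seen. An SE was obtained from each log2 fold change and its F statistic, as their absolute value over the root of F. CPM use library sizes of kept genes times TMM factors. Log2 CPM used a prior count of 1. No pair of libraries of a group agreed within sampling noise (chi-square per degree of freedom at least 13.6). The fits were tested on simulated data. Positions and exon lengths came from GENCODE on GRCm39, promoters from RefSeq on GRCm38.p6.

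The 8 genes and all lists were chosen with earlier results of these data known. Named genes were Mgll, the 8 genes, the genes of each other sterol or fatty acid list with the smallest unadjusted p (3, or 2 in lists of under 5), the 5 genes most like the mean of the 8, and the gene of highest mean CPM of each marker list. Scap, Mbtps1, Mbtps2, Abcg5, Abcg8, Adipoq, Crnn and Pmp2 were named in addition. Some genes that this rule names are not reported here.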

Additional observations from a re-analysis of the deposited data

Results flagged for a closer look

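Each group of 4 values was compared for a library far from the other 3, over the named genes and the summed marker lists. Of 70 such groups 7 held one, where chance gives about 3.5. Ubxn4 was high in WT 3, at 132.1 CPM against at most 112.5 in the other WT libraries. Erlin2 was low in the same library, at 26.1 CPM against at least 35.1. Soat2 was high in MGL KO 2, at 4.69 CPM with 0.80 as the next value of that group. The summed basal squamous markers were low in WT 3, at 3270.2 CPM against at least 4757. Smooth muscle markers summed to 2000.5 CPM in MGL KO 3 and to at most 1518 in the rest of its group. In MGL KO 4 the airway ciliated markers summed to 535.6 CPM (others at most 6.92) and the airway secretory markers to 8342 CPM (others at most 51.3). None of the 8 cholesterol synthesis genes had such a library in either group.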

How the results depend on the processing

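In all 20 alternatives, 0 of the 8 cholesterol synthesis genes and 0 of the other listed genes had an adjusted p under 0.05. Of 160 log2 fold changes of the 8 genes in these alternatives, 151 kept their direction and 9 turned. Srebf2, Idi1, Sqle, Lss and Cyp51 kept theirs throughout. With 1 library left out in turn, Insig1 ran from -0.20 to 0.049, Hmgcs1 from -0.070 to 0.17, Fdft1 from -0.088 to 0.036, Soat2 from -0.38 to 1.45 and Elovl5 from -0.016 to 0.68. Without MGL KO 2, MGL KO 4 and WT 3, Fdft1 was at 0.045, Abcg1 at -0.016 and Soat2 at -0.79, and Soat2 was at -0.24 with limma-voom. Over all genes the 7 calls became 65 in the exact test, 42 in that test without the filter, 137 with DESeq2, 25 with limma-voom, 2 in the robust fit and 2 without a filter, 4 without the 3 libraries, and 2 to 5 when each library was dropped in turn. The cause of these differences in count was not tested. No gene of the 8 had groups that did not overlap with library size alone or with a prior count of 0.5.

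With the replicate number as a block, 2 genes were called and 0 of the 8. Same-numbered libraries deviated from their group means with correlations of -0.14, -0.28, -0.14 and 0.08 over 14864 genes. The labels say nothing of animals or batches, so whether same-numbered libraries share more than a number cannot be told. With 4 libraries a group, the 95% intervals reached 0.53 for Srebf2 and 1.16 for Sqle on the log2 scale, so rises up to these sizes lie within the error of this design.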

Other observations

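Ratios between the 8 genes within a library do not depend on its scaling. Of 28 pairs, 4 had every MGL KO library on one side of every WT library, and all 4 had Lss in the denominator, with Sqle, Cyp51, Idi1 and Hmgcs1 above it. Over all pairs of genes tested, the groups did not overlap in 6.0%, and with Lss as the denominator the MGL KO libraries were all above the WT libraries for 3.46% of all other genes. The 4 pairs share Lss and so are not independent of each other. The ratio of Sqle to Lss was 1.16, 2.49, 1.05 and 1.97 in MGL KO and 0.833, 0.820, 0.678 and 0.797 in WT libraries. That of Cyp51 to Lss was 1.78, 2.79, 1.37 and 1.70 in MGL KO and 1.27, 1.20, 0.897 and 1.13 in WT. For Idi1 to Lss the values were 0.444, 0.568, 0.460 and 0.566 against 0.413, 0.222, 0.276 and 0.345, and for Hmgcs1 to Lss 4.98, 8.15, 4.48 and 5.28 against 4.34, 3.43, 3.72 and 4.18. MGL KO 2 had the highest of these ratios in every pair, and the gap between the groups was widest for Sqle. The pairs were noticed after the values were seen, so no p is given. The locus of Lss overlaps Gm66108, Gm66127 and Gm15343 on the opposite strand.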
